A study of Macaca mulatta with 8 samples.

Results

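The left eye of 1 rhesus macaque was set against its right eye, cell class by cell class. These are the 6 libraries of NHP2 among the 8 of the series, 3 from each eye, taken as every NHP2 library of the labelled eye. Cells were barcodes with at least 1500 unique molecular identifiers (UMIs, each standing for 1 captured RNA molecule) and 300 genes, which gave 33485 cells of the left eye and 32420 of the right, 65905 of the 91803 cells of the series. The study asked how the retina reacts to subretinal gene therapy and delivered adeno-associated virus (AAV) vectors beneath the retina in blebs. NHP2 was a male of 6 years. Each of its eyes gave a punch from a bleb of AAV8-GRK1-hRPGR, which carries a codon-optimised human RPGR read here as coRPGR, a punch from a bleb of AAV8-GRK1-mScarlet, which carries a red fluorescent reporter, and a punch of uninjected retina. The GRK1 promoter of both vectors is active in photoreceptors. By the study's methods every eye had a vitrectomy, triamcinolone beneath Tenon's capsule and a topical dexamethasone ointment. The left eye was also given repeated injections of adalimumab, an antibody that binds tumour necrosis factor (TNF), into the vitreous. The drug and the eye therefore cannot be told apart, no eye without corticosteroid was compared, and all 6 libraries came from 1 animal, so a p-value below measures only the spread between punches.

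TNF is a cytokine released mainly by macrophages and lymphocytes that acts through the receptors TNFRSF1A and TNFRSF1B. Its signal frees the transcription factor NF-kB, which switches on chemokines, adhesion molecules and its own inhibitors NFKBIA and TNFAIP3. Type I interferon signals through a complex that holds STAT2 and IRF9 instead, and it binds a short element in the promoters of antiviral genes such as MX1, ISG15 and the IFIT and OAS families. In the retina, Müller glia are the radial support cells, microglia the resident myeloid cells, cones the daylight photoreceptors, and bipolar cells the neurons that carry photoreceptor signals inward.

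Classes were gated with marker panels, so the high own panel of each of the 5 classes compared was set by the gate. The gate also kept the other panels low, apart from the rod panel. A panel was scored as its UMIs per 10000 UMIs of a cell, and the median over cells was taken. Myeloid cells of the 6 libraries had 107.3 to 167.3 for the myeloid panel and 0.4 to 2.4 for the T and natural killer (T/NK) panel. The corresponding own-panel ranges were 53.0 to 76.9 in T/NK cells, 297.6 to 361.8 in Müller glia, 107.7 to 168.8 in cones and 103.7 to 117.1 in bipolar cells. Rod RNA, which the gate did not limit in these classes, was present in all of them and differed between libraries. In T/NK cells the rod panel ranged from 4.61 to 53.3 over the libraries, so that its highest value exceeded the lowest own-panel value. It ranged from 6.08 to 53.1 in Müller glia, 1.31 to 13.4 in cones and 3.33 to 27.3 in bipolar cells. In myeloid cells the rod panel had a median of 12.6, 56.2 and 6.17 on this scale in the uninjected, hRPGR and mScarlet areas of the right eye and 43.7, 7.43 and 3.03 in those of the left. The uninjected and hRPGR areas thus differed in opposite directions between the eyes, and every class showed that order. In all, 1437 myeloid, 959 T/NK, 6135 Müller glia, 2131 cone and 5100 bipolar cells were summed. The libraries held 90634306 to 122705046 UMIs and 9564 to 12629 cells, with a median of 5293 to 6036 UMIs per cell over all classes and 135 to 226 cell barcodes shared between any pair of libraries. Myeloid cells had a median of 4742, 3136 and 4452 UMIs in the right eye and 6684, 7969 and 9167 UMIs in the left, so that all left libraries lay above all right ones in depth per cell; its part in the myeloid results below was not tested. The other 4 classes did not separate the eyes in this way. The right library labelled uninjected also held vector RNA, with 8640 UMIs of coRPGR in its rods (195.0 CPM) against 0 in the left one, and the labels do not say whether that punch touched a bleb. Results are therefore given by area, so that the hRPGR and mScarlet areas can be read without that library. Fits and counts over all 3 areas include it. The hRPGR areas also differed in vector RNA, with coRPGR at 3817 CPM in right rods and 1444 CPM in left rods. Rods of the mScarlet areas had mScarlet at 309 CPM (right) and 244 CPM (left). The study estimated a smaller bleb and a higher vector dose per pigment epithelial cell for the left mScarlet bleb than for the right. It also reported infiltrates beneath the retina in that left bleb, followed by atrophy of the outer retina. The labels do not say whether the punch held atrophic retina. The parts of vector amount and of atrophy in the results below were not tested. Class sums ranged from 86867 UMIs (T/NK) to 11084300 UMIs (Müller glia).

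The summed RNA of the interferon response was lower in the left eye in each of the 5 classes and 3 areas, while single members varied. The list held 52 genes, and the UMIs of those present under that symbol were added up. Sums were expressed as CPM, that is counts per 1000000 UMIs of the class. A sum gives most weight to abundant genes, and in Müller glia IFI6 alone was a large part of it (values below). Values below are given in the order uninjected, hRPGR and mScarlet area. Myeloid cells had 13837, 14195 and 13616 CPM in the right eye and 6832, 5977 and 10399 CPM in the left. T/NK cells had 12364, 8342 and 8419 CPM in the right eye and 4061, 5673 and 5595 CPM in the left. The eyes did not overlap in either class of immune cell. Müller glia showed the widest gap in the uninjected and hRPGR areas, with 27797, 26473 and 16104 CPM in the right eye and 2885, 5131 and 12358 CPM in the left, a ratio of right to left of 9.64 in the uninjected area, 5.16 in the hRPGR area and 1.30 in the mScarlet area. In the mScarlet area the ratio was higher in T/NK cells, in bipolar cells (1.39) and, narrowly, in myeloid cells (1.31). Bipolar cells had 3070, 3578 and 3734 CPM in the right eye and 648, 943 and 2695 CPM in the left. Cones had 971, 1024 and 1486 CPM against 352, 450 and 1314 CPM, and here the left mScarlet area lay above 2 right libraries. A sum over cells does not tell fewer responding cells from less RNA per cell. Droplets with 100 to 1000 UMIs, which mostly hold free RNA, had the same genes at 1314, 3086 and 1273 CPM in the right eye and 527, 526 and 1905 CPM in the left. In the uninjected and hRPGR areas free RNA was lower in the left eye, as the class sums were, with ratios of right to left of 2.49 and 5.86. In the mScarlet area free RNA was higher in the left eye, where all 5 classes had lower sums in that eye. The part of free RNA in the class sums was not tested. Levels in cones were at or below those of free RNA in 5 of the 6 libraries.

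**Figure D1:**
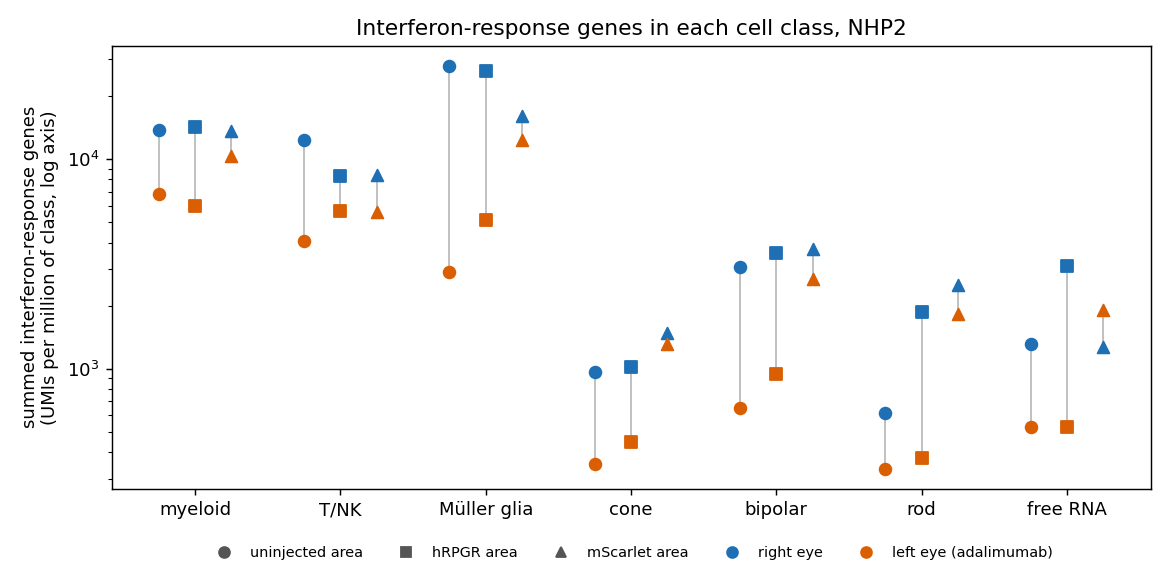
Summed level of the interferon-response list (y axis, log scale, CPM) by cell class (x axis) in NHP2, 1 point per library, with colour for the eye and the marker shape for the area. In Müller glia the right eye ranged from 16104 to 27797 CPM and the left from 2885 to 12358 CPM.

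The complex that holds STAT2 and IRF9 recognises a pair of GAAA blocks set 2 bases apart. This motif (GAAA, NN, GAAA, where N is any base) was looked for on both strands of the 300 bases before each annotated gene start in RefSeq's Mmul_10 macaque genome. It was present before 759 of 20787 protein-coding genes (3.65%). Of the genes tested in myeloid cells, 9205 were found in that annotation as protein-coding, and 330 of these held it (3.59%). Among interferon-list genes tested in these cells, 45 had such a stretch, and 15 of them held it (33.3%). Of the 31 listed genes that were lower in the left myeloid cells of all 3 areas, 10 held it (32.3%), and of the 23 NF-kB list genes tested, 2 (8.7%). A match describes letters and is no evidence of binding. Of the 6 members with at least 2 matches in the last 150 bases before the start, 4 are shown as examples of how the blocks sit there (BST2 and HERC5 are the others), and the RNA of ISG15, IFI6 and IFI27 is followed through the classes below; capitals mark the motif in either orientation, and each is written 5′ to 3′ along its gene's strand (ISG15 chr1:223405103-223405252, minus strand; IFI6 chr1:197051436-197051585, plus strand; IFI27 chr7:156288903-156289052, plus strand; IFIT2 chr9:89563310-89563459, plus strand).
ISG15: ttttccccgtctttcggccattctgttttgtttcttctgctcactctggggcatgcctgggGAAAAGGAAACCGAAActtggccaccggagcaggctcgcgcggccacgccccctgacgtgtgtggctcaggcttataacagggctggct
IFI6: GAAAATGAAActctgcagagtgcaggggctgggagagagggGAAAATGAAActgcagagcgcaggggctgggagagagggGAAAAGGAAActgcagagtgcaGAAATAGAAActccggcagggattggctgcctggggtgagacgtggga
IFI27: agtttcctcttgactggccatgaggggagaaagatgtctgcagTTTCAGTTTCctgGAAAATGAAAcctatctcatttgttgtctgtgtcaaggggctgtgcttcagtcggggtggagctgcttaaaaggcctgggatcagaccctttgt
IFIT2: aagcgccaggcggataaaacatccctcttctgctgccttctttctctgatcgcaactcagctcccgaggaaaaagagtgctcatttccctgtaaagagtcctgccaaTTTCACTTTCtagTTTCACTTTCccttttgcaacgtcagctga

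In myeloid cells several antiviral effectors of the interferon list were lower in the left eye, and none of them was called. MX1 (chromosome 3, 5189230 to 5224218, minus strand), a GTPase that traps viral nucleocapsids, had 1152, 1059 and 997 CPM in the right eye and 268, 351 and 402 CPM in the left (log2 fold change -1.65, SE 0.233, adjusted p 0.103). OAS2, which makes the messenger that activates RNase L, had 313, 266 and 258 CPM in the right eye and 73.7, 102 and 111 CPM in the left (log2 fold change -1.51, SE 0.22, adjusted p 0.103). Every left library lay below every right one for both genes. IFIT3, which partners IFIT1 in binding viral RNA, had 205, 185 and 179.6 CPM in the right eye and 75.8, 76.0 and 84.3 CPM in the left (log2 fold change -1.25, SE 0.19, adjusted p 0.103). MX2 had 726, 586 and 488 CPM in the right eye and 272, 248 and 219 CPM in the left (log2 fold change -1.27, SE 0.198, adjusted p 0.103). For these genes too the eyes were apart in all areas. ISG15, a ubiquitin-like modifier whose promoter is shown above, had 296, 292 and 296 CPM in the right eye and 45.1, 58.0 and 147 CPM in the left (log2 fold change -1.89, SE 0.307, adjusted p 0.105). IFI6, a small membrane protein induced by interferon, had 4481, 3988 and 2826 CPM in the right eye and 1207, 912 and 1440.3 CPM in the left (log2 fold change -1.66, SE 0.287, adjusted p 0.141). The left mScarlet area was the highest left library for both, yet below the right eye. A signal protein was closer. IRF9 had 146, 142 and 156 CPM in the right eye and 115, 109 and 116 CPM in the left (-0.39), the value in parentheses being the log2 fold change of left over right, and again the eyes did not overlap.

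No single gene in myeloid cells passed the test across all genes. Left was tested against right with area as a block in edgeR's quasi-likelihood test with Benjamini-Hochberg adjustment, and 0 of 9917 genes were called, while 327 (3.3%) had an unadjusted p under 0.05. DESeq2, which the study used, called 14, of which 10 were in the interferon list. Leaving out 1 library at a time gave 0 to 4 genes in edgeR. Of the 46 interferon-list genes tested, 31 were lower in the left library of all 3 areas and 5 higher, where over all genes tested 12.3% were lower and 12.1% higher in this way. In 18 of the 46 all left libraries lay below all right ones, which was so for 4.14% of all genes, and 3.79% lay above. The median log2 fold change of the list was -0.55, against area medians of -0.92 (uninjected), -0.59 (hRPGR) and -0.46 (mScarlet). On simulated counts of these libraries, 43% of genes altered by 1 log2 unit and 97% of those altered by 2 were recovered. The simulation gave each altered gene the same eye difference in all areas and a spread set by its level alone. These shares therefore do not tell how often real genes whose areas differ would be called.

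The 5 of 46 interferon-list members that were higher in the left myeloid library of each area, a share near the 12.1% of all genes, were IRF1, IDO1, GBP3, WARS1 and TRIM21. IRF1, a transcription factor that interferon gamma and NF-kB both induce, had 114, 63.9 and 139 CPM in the right eye and 244, 105 and 211 CPM in the left (log2 fold change 0.78, SE 0.193, adjusted p 0.666). GBP3, a guanylate-binding protein, had 468, 410.5 and 601 CPM in the right eye and 903, 510.2 and 1174 CPM in the left (log2 fold change 0.74, SE 0.224, adjusted p 1.00). IDO1, which degrades tryptophan, had 31.8, 101 and 434 CPM in the right eye and 178, 205 and 582 CPM in the left (log2 fold change 1.09, SE 0.314, adjusted p 0.996). None of the 3 was called. Among the chemokines that draw CXCR3-bearing T cells, CXCL10 had 307, 96.9 and 289.9 CPM in the right eye and 225, 84.0 and 378 CPM in the left and CXCL9 had 6.35, 124 and 98.6 CPM in the right eye and 14.3, 24.0 and 265 CPM in the left. CXCL10 was lower in the left eye in the uninjected and hRPGR areas and CXCL9 in the hRPGR area alone, and their eyes overlapped.

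**Figure D2:**
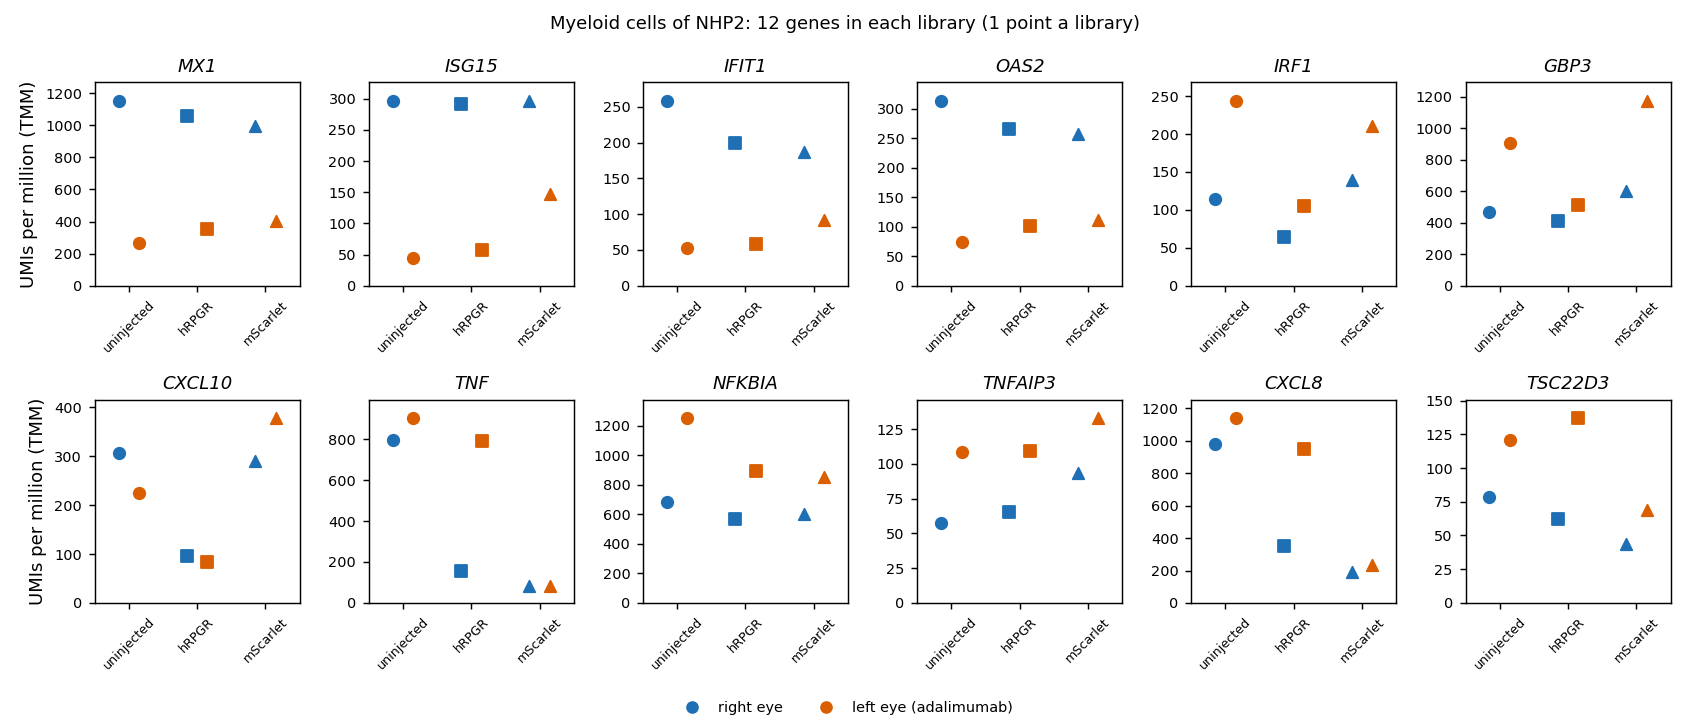
Levels of 12 genes in myeloid cells of NHP2 (y axis, CPM after TMM scaling; x axis, area), 1 point per library, with the right and the left eye in different colours. For MX1 the left eye lay between 268 and 402 CPM and the right between 997 and 1152 CPM.

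TNF signalling genes of left myeloid cells did not share the order of the antiviral genes. TNF itself had 798, 155 and 81.8 CPM in the right eye and 903, 793 and 81.0 CPM in the left (log2 fold change 0.82, SE 0.411, adjusted p 1.00), so that the hRPGR area differed between the eyes and the other areas hardly did, and the log2 fold change ranged from 0.082 without the left hRPGR library to 1.27 without either mScarlet one. Its receptor TNFRSF1A had 172, 78.8 and 85.2 CPM in the right eye and 65.6, 84.0 and 81.0 CPM in the left (-0.36) and TNFRSF1B 176, 142 and 152 CPM in the right eye and 158, 171 and 162 CPM in the left (0.08). Of the 20 ligands, receptors and signal proteins tested, 0 were lower and 3 higher in the left library of all 3 areas (NFKB1, REL and BIRC2), with a median of 0.13. NF-kB feedback and target genes leaned towards the left eye: 1 of 23 was lower in all 3 areas (PLAUR) and 10 were higher, against 12.3% and 12.1% of all genes, and 7 had an unadjusted p under 0.05, all of them higher, against 3.3% of all genes in either direction. None of these was called. The list median was 0.42. TNFAIP3, which removes ubiquitin chains to end NF-kB signalling, had 57.2, 65.6 and 93.2 CPM in the right eye and 109, 109 and 133 CPM in the left (log2 fold change 0.69, SE 0.194, adjusted p 0.968). NFKBIA, the inhibitor that holds NF-kB in the cytoplasm, had 682, 567 and 605 CPM in the right eye and 1254, 892 and 856 CPM in the left (log2 fold change 0.67, SE 0.21, adjusted p 1.00). All left libraries lay above all right ones for both. The neutrophil chemokine CXCL8 had 980.5, 353 and 191 CPM in the right eye and 1141, 947 and 233 CPM in the left (log2 fold change 0.64, SE 0.269, adjusted p 1.00), with overlapping eyes, and the monocyte chemokine CCL2 had 3530.1, 754 and 534 CPM in the right eye and 1415, 1423 and 922 CPM in the left (0.16). The medians of the NF-kB list were 0.22, 0.63 and 0.29 in the uninjected, hRPGR and mScarlet areas.

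Genes that respond to tissue handling moved alongside this list, and their part in it was not tested. Of 16 immediate early and heat shock genes tested in myeloid cells, 0 were lower and 5 higher in all 3 areas, against 12.3% and 12.1% of all genes. Their summed level was 26414, 15896 and 15426 CPM in the right eye and 31423, 28405 and 15974 CPM in the left. Marker genes of myeloid states differed between libraries as well. Whether this reflects the makeup of the class or RNA per cell was not tested. P2RY12, a receptor of resting microglia, had 699, 149.7 and 186 CPM in the right eye and 266, 299 and 152 CPM in the left, and CX3CR1, the fractalkine receptor of microglia, had 894, 211 and 171 CPM in the right eye and 270.4, 364 and 163 CPM in the left. Their order between the eyes turned from area to area. GPNMB, a glycoprotein of lipid-laden macrophages, had 0, 1041 and 781 CPM in the right eye and 84.0, 252 and 647 CPM in the left. The summed list of lipid-associated and activated myeloid genes that holds it had 12439, 23872 and 20927 CPM in the right eye. In the left eye this list had 9923, 12916 and 24459 CPM, so that it ran against GPNMB in the uninjected and mScarlet areas. The medians of the 9 homeostatic microglia genes tested were -0.68, 0.79 and -0.10 in the 3 areas. Among other lists, MHC class II genes were higher in the left eye in all areas for 4 of 9 tested, complement genes for 0 of 11, and glucocorticoid response genes for 2 of 8. Over all genes the share was 12.1%, which the MHC class II count exceeded, on few genes. The summed MHC class II list was still lower in the left eye in the hRPGR area, with 29898.5 CPM (right) and 28226 CPM (left). The summed complement list had 13130, 12944 and 13748 CPM in the right eye and 9139.5, 8938 and 15993.5 CPM in the left. Of the glucocorticoid response genes, TSC22D3 had 78.4, 62.1 and 43.3 CPM in the right eye and 121, 137 and 69.1 CPM in the left (0.83). Outside the lists, the genes with the lowest p that were higher in the left eye were the linker histone gene H1-3 (1.18), the calcitonin-receptor-like gene CALCRL (1.11) and the histone gene H4C3 (1.07), none of them called. KCNIP4, a potassium channel subunit of neurons, was among the 3 lowest p on the other side with 36.0, 59.9 and 61.6 CPM in the right eye and 10.2, 24.0 and 19.8 CPM in the left, below its level in free RNA (275 CPM).

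In T/NK cells the interferon list was lower in the left eye too, on smaller numbers: the uninjected areas gave 24 cells (right) and 35 (left). Of 42 genes tested, 27 were lower in the left library of all 3 areas and 1 higher, against 10.7% and 13.7% of all genes. All left libraries lay below all right ones in 22 of the 42, against 4.26% of all genes (5.04% lay above). The median log2 fold change was -0.59, and -1.46, -0.28 and -0.38 in the uninjected, hRPGR and mScarlet areas. IFI6 had 1581, 1376 and 1305 CPM in the right eye and 444, 631 and 624 CPM in the left (log2 fold change -1.31, SE 0.214, adjusted p 0.287), and IFI27, a mitochondrial interferon-induced protein, had 2124, 1123 and 1194 CPM in the right eye and 289, 455 and 563 CPM in the left (log2 fold change -1.68, SE 0.325, adjusted p 0.56). The eyes did not overlap for either. The transgene coRPGR had the lowest p of the lower genes, with 50.6, 1022 and 7.48 CPM in the right eye and 0, 146 and 0 CPM in the left, but its level in free RNA averaged 1010.0 CPM. EdgeR called 0 of 6549 genes, while 170 (2.6%) passed an unadjusted 0.05, and 0 passed in DESeq2. With the right uninjected library left out edgeR called 275 genes, and with the left one left out 279. In each fit 11 of the called genes were in the interferon list, all lower in the left eye. Both fits rest on the same remaining pairs and are not separate observations.

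Among genes higher in left T/NK cells, the co-chaperone DNAJB1 had the lowest p, with 50.6, 68.7 and 97.2 CPM in the right eye and 229, 252 and 249 CPM in the left (log2 fold change 1.64, SE 0.247, adjusted p 0.282). The T cell receptor segment TRBV23-1 had 101, 19.9 and 26.2 CPM in the right eye and 175, 194 and 92.4 CPM in the left (2.06), and the histone gene H1-5 had 0, 65.1 and 99.7 CPM in the right eye and 6.73, 366 and 226 CPM in the left (1.74). Of these 3, DNAJB1 alone had all left libraries above all right ones. Cell division genes had a median of 1.00 over 7 tested, and 5 had an unadjusted p under 0.05, against 2.6% of all genes in either direction. None of them was called. MKI67, a nuclear protein of cycling cells, had 0, 74.1 and 130.3 CPM in the right eye and 0, 274 and 245 CPM in the left, so that the difference lay in the injected areas. Of 12 cytotoxic genes tested, 3 were lower in all areas and 0 higher, against 10.7% and 13.7% of all genes, with a median of -0.31. Granzyme B (GZMB) had 1062, 640.2 and 1729 CPM in the right eye and 296, 1456 and 1217 CPM in the left (-0.31), and perforin (PRF1) had 164, 63.3 and 186 CPM in the right eye and 135, 75.0 and 220.0 CPM in the left (0.13), both with overlapping eyes. Interferon gamma (IFNG) had 12.6, 27.1 and 56.7 CPM in the right eye and 20.2, 30.9 and 40.5 CPM in the left (-0.31). The checkpoint gene PDCD1 had 25.3, 136 and 249 CPM in the right eye and 101, 150.1 and 236 CPM in the left (0.19), and of the 10 checkpoint genes tested 1 was lower and 1 higher throughout.

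In the right eye Müller glia had a higher summed interferon level than any other class compared, and this eye stood far above the left outside the mScarlet area. MX1 had 3082, 2794 and 988 CPM in the right eye and 29.2, 134 and 442 CPM in the left (log2 fold change -4.15, SE 1.18, adjusted p 1.00). ISG15 had 1701, 1575 and 736 CPM in the right eye and 92.3, 177 and 361 CPM in the left (log2 fold change -2.83, SE 0.632, adjusted p 1.00), and IFI6 had 15681, 14732 and 7629.7 CPM in the right eye and 1751, 2865 and 6176 CPM in the left (log2 fold change -1.98, SE 0.564, adjusted p 1.00). All left libraries lay below all right ones for the 3 genes, and the left mScarlet area came nearest. The log2 fold change of MX1 was -2.76 when an uninjected library was left out and -5.54 when an mScarlet one was, and those of ISG15 (-3.68 to -2.08), DDX58 (-2.80 to -1.43) and IFI6 (-2.76 to -1.33) depended on the same libraries. DDX58, which encodes the viral RNA sensor RIG-I, had 272, 229 and 143 CPM in the right eye and 25.8, 49.9 and 88.4 CPM in the left (log2 fold change -2.09, SE 0.507, adjusted p 1.00), and ADAR, an enzyme that edits double-stranded RNA, had 284, 298 and 231 CPM in the right eye and 113, 116 and 146 CPM in the left (log2 fold change -1.12, SE 0.165, adjusted p 0.887). Of 44 listed genes tested, 29 were lower in all areas and 1 higher (LAP3), against 10.7% and 10.5% of all genes. In 26 of the 44 the left libraries were all below the right ones, against 3.78% of all genes (3.25% above). The median log2 fold change was -1.54, made of -2.82, -1.90 and -0.33 in the 3 areas. EdgeR called 0 of 13028 genes, while 374 (2.87%) passed an unadjusted 0.05. In DESeq2 30 genes passed, of which 4 were in this list. Without the right or the left mScarlet library edgeR called 52 and 41 genes, of which 19 and 14 were interferon-list genes, all lower in the left eye. Both fits rest on the same remaining pairs and are not separate observations.

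The CXCR3 ligand CXCL10 and the guanylate-binding protein GBP3 did not follow this order in Müller glia. CXCL10 had 0.370, 129 and 772 CPM in the right eye and 0.723, 158 and 634 CPM in the left (0.04), and GBP3 had 7.77, 45.7 and 136 CPM in the right eye and 4.88, 34.8 and 213 CPM in the left (-0.02). Both differed between areas by far more than between eyes. Beta-2-microglobulin (B2M), the light chain of MHC class I, had 1031, 1663 and 2464 CPM in the right eye and 190.1, 825 and 3145 CPM in the left (-1.03), lower in the left eye in 2 areas and higher in the mScarlet area. The MHC class I loading list as a whole had area medians of -1.07, -0.70 and 0.31 over 12 genes.

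**Figure D3:**
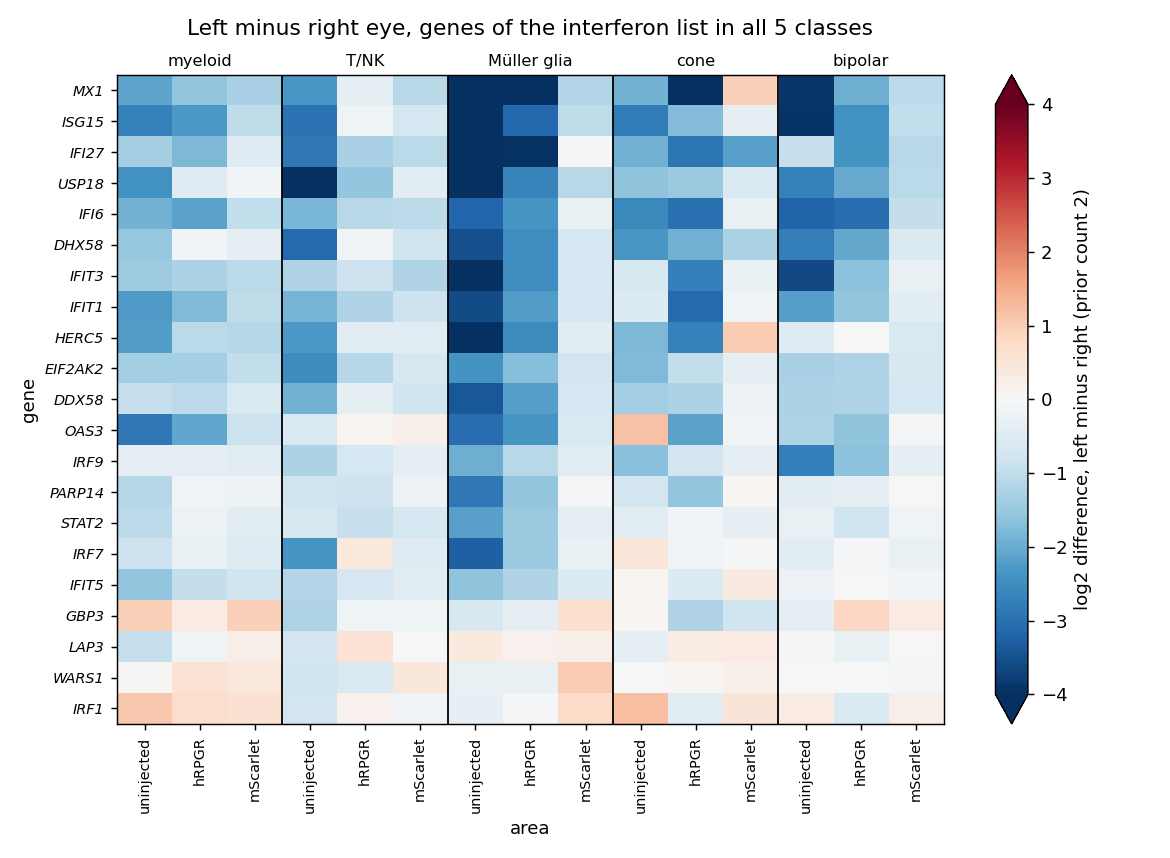
Log2 difference, left minus right (colour), of 21 interferon-list genes tested in all 5 classes (y axis) in the 3 areas of each class (x axis). Müller glia had a list median of -2.82 in the uninjected area and -0.33 in the mScarlet area.

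Immediate early genes were higher in left Müller glia. Of 16 immediate early and heat shock genes tested, 12 were higher in all areas and 1 was lower, against 10.5% and 10.7% of all genes. Their median was 1.12, 12 had an unadjusted p under 0.05 (2.87% of all genes did) and 0 were called in edgeR. DESeq2 called 4 of them, as did edgeR without the right or the left mScarlet library. In 10 the left libraries were all above the right ones, against 3.25% of all genes. FOS, a subunit of the AP-1 transcription factor, had 291, 485 and 561 CPM in the right eye and 1383, 1112 and 798 CPM in the left (log2 fold change 1.31, SE 0.327, adjusted p 1.00). NR4A1, an orphan nuclear receptor, had 37.4, 48.5 and 43.3 CPM in the right eye and 304, 243 and 82.4 CPM in the left (log2 fold change 2.11, SE 0.395, adjusted p 0.916). Their gap too was narrowest in the mScarlet area. The summed list stood at 4140, 4505 and 4306 CPM in right and 8338, 7361 and 5321 CPM in left Müller glia. Free RNA held it at 1685, 6115 and 1690 CPM in the right eye and 5218, 1937 and 2702 CPM in the left, and so did not follow the eyes in the hRPGR area; the part of handling was not tested. In cones the same list was higher in all areas for 0 of 15 genes, against 8.9% of all genes tested in cones.

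Support genes of Müller glia had no common direction over the areas. Of 11 homeostasis genes, 0 were lower and 0 higher in all areas, against 10.7% and 10.5% of all genes. Their medians were -0.38 in the uninjected, 0.31 in the hRPGR and 0.03 in the mScarlet area. Glutamine synthetase (GLUL) had 7202, 4877 and 8631 CPM in the right eye and 4999, 7314 and 7852 CPM in the left (-0.03), and the retinoid carrier RLBP1 had 5113, 3769.6 and 4332 CPM in the right eye and 3932, 4526 and 4505 CPM in the left (-0.02). Of 14 gliosis genes, 2 were lower and 3 higher in all areas, with a median of 0.28. The intermediate filament gene GFAP had 52.2, 179 and 233 CPM in the right eye and 55.0, 121 and 486 CPM in the left (log2 fold change 0.20, SE 0.304, adjusted p 1.00), which places the highest level in the left mScarlet area. The small heat shock protein CRYAB, also in that list, had 1544, 1353 and 1189 CPM in the right eye and 2474, 2043 and 1518 CPM in the left (log2 fold change 0.54, SE 0.116, adjusted p 1.00). Fibronectin (FN1) had the lowest p of all genes in the class, with 1.67, 1.09 and 5.33 CPM in the right eye and 10.4, 4.74 and 27.7 CPM in the left (log2 fold change 2.39, SE 0.216, adjusted p 0.602). The gluconeogenic enzyme PCK1 had 2.04, 1.72 and 1.83 CPM in the right eye and 11.1, 17.1 and 6.36 CPM in the left (2.55), the ribosomal protein RPL41 234, 234 and 195 CPM in the right eye and 411, 454 and 299 CPM in the left (0.80), and the transcription factor PAX2 17.6, 5.46 and 19.1 CPM in the right eye and 5.42, 1.11 and 5.71 CPM in the left (-1.82). Each eye kept to its own side for FN1 in the 3 areas, but the left hRPGR library lay below the right mScarlet one. UBQLNL, also among the lowest p, had at most 3.12 CPM.

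In cones edgeR called 1 feature lower in the left eye, the coRPGR transgene, which is vector RNA and not a gene of the animal. coRPGR had 20.2, 12916 and 25.9 CPM in the right eye and 0, 517 and 0.769 CPM in the left (log2 fold change -4.85, SE 0.321, adjusted p 0.0489). The hRPGR areas carried the vector, and the right one had 69057 UMIs in cones against 2156 UMIs in the left. Outside these areas the right uninjected cones held 148 UMIs and the left ones 0, which allows a level of up to 0.433 CPM (3 UMIs, counting error only). Free RNA had coRPGR at 299.8, 3482 and 27.0 CPM in the right eye and at 0, 2251 and 0.53 CPM in the left. Cones thus exceeded free RNA clearly in the right hRPGR area and lay below it in the left one. Without TMM scaling, right cones had 19.4 CPM in the uninjected and 26.7 CPM in the mScarlet area, below and near free RNA. Left mScarlet cones held 3 UMIs. The direction in these areas was therefore not shown apart from free RNA. In edgeR coRPGR was the sole feature called of 11630 (0.0086%), with 156 (1.34%) at an unadjusted p under 0.05, while 2 passed in DESeq2. The edgeR call was lost without the area block, with a minimum of 1000 UMIs per cell and without any 1 of the hRPGR or mScarlet libraries. Without the right or the left uninjected library, 21 and 10 genes were called. Among genes not called, the mitochondrial complex I subunit ND4L had 16.6, 11.8 and 13.1 CPM in the right eye and 31.6, 45.3 and 25.1 CPM in the left (1.25) and the extracellular matrix gene FRAS1 12.1, 10.1 and 6.50 CPM in the right eye and 35.0, 14.4 and 15.1 CPM in the left (1.12). RRP15, a ribosome assembly factor, had 21.3, 18.5 and 18.7 CPM in the right eye and 29.8, 25.9 and 28.9 CPM in the left (0.53) and SCHIP1 11.2, 17.8 and 19.5 CPM in the right eye and 4.30, 8.64 and 6.92 CPM in the left (-1.30). The eyes did not overlap for these 4 genes, although SCHIP1 lay below its level in free RNA (69.6 CPM) and free RNA held ND4L at 24.4 CPM and RRP15 at 22.3 CPM. The mScarlet transgene stood at 355 CPM in cones of the right mScarlet area and 456 CPM in the left, both without TMM scaling, and so did not follow the same order.

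Interferon genes in cones were lower in the left eye at low levels. Of 22 tested, 12 were lower in all areas and 0 higher, against 9.56% and 8.9% of all genes, and in 5 the left libraries were all below the right ones, against 2.56% (2.77% above). The median log2 fold change was -0.95, with -1.06, -1.38 and -0.24 by area. DHX58, a regulator of RNA sensing, had 24.7, 22.6 and 25.6 CPM in the right eye and 4.60, 5.76 and 10.5 CPM in the left (log2 fold change -1.88, SE 0.24, adjusted p 1.00), and DESeq2 called it along with 1 other gene. EIF2AK2, the kinase that halts translation on double-stranded RNA, had 115, 87.0 and 109.7 CPM in the right eye and 33.7, 43.4 and 85.8 CPM in the left (log2 fold change -1.03, SE 0.256, adjusted p 1.00). IFI6 had 134, 181 and 146 CPM in the right eye and 22.1, 22.5 and 118 CPM in the left, below its mean level in free RNA of 534 CPM. Vision genes of cones had no common direction either. Of 18 phototransduction genes, 0 were lower and 1 higher in all areas, with medians of -0.19, 0.09 and -0.01 in the 3 areas. Cone arrestin (ARR3) had 5146, 3558 and 3953 CPM in the right eye and 4628, 5135 and 3563 CPM in the left (0.07), and the red-green opsin (OPN1LW) had 1786, 1569 and 1741 CPM in the right eye and 1313, 1843 and 1932 CPM in the left (-0.02). The blue opsin (OPN1SW) had 259, 326 and 284 CPM in the right eye and 299, 176 and 21.5 CPM in the left (log2 fold change -1.26, SE 0.682, adjusted p 1.00), with its lowest level in the left mScarlet area, where the class held 163 cells.

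In bipolar cells, neurons next to the photoreceptors that the vectors target, interferon genes were lower in the left eye as well. DDX58 (chromosome 15, 51361635 to 51433265, plus strand) had 114, 161 and 173 CPM in the right eye and 47.1, 68.1 and 105 CPM in the left (log2 fold change -1.07, SE 0.124, adjusted p 0.0861). EIF2AK2 (chromosome 13, 71756058 to 71807916, plus strand) had 176, 191 and 205 CPM in the right eye and 71.6, 81.6 and 131 CPM in the left (log2 fold change -1.05, SE 0.134, adjusted p 0.0861). Every left library lay below every right one for both. IFI6 had 1532, 1686 and 1302 CPM in the right eye and 166, 204 and 674 CPM in the left (log2 fold change -2.42, SE 0.401, adjusted p 0.28). Of 32 listed genes tested, 23 were lower in all areas and 0 higher, against 10.8% and 10% of all genes, and in 10 the eyes did not overlap, against 3.79% of all genes below and 3.59% above. The median log2 fold change was -0.79, with -1.08, -1.14 and -0.29 by area. EdgeR called 0 of 12991 genes, while 370 (2.85%) passed an unadjusted 0.05, and 14 passed in DESeq2, of which 4 were in this list. With the right hRPGR library left out, or the left one, edgeR called 139 and 135 genes, and without the right or the left mScarlet library 19 and 12. The chaperones HSPB1 and DNAJB1 had higher levels in the left eye and were not called in edgeR, while DESeq2 called 3 genes of the immediate early and heat shock list, both of these among them. HSPB1 had 186, 124 and 98.7 CPM in the right eye and 344, 213 and 209.5 CPM in the left (log2 fold change 0.92, SE 0.0967, adjusted p 0.0861), and DNAJB1 had 129, 116 and 129 CPM in the right eye and 249, 188 and 201 CPM in the left (log2 fold change 0.76, SE 0.0976, adjusted p 0.0861). PDE6H, a cone phosphodiesterase subunit, had 46.7, 45.4 and 23.6 CPM in the right eye and 114, 77.0 and 42.6 CPM in the left (0.98), below its level in free RNA (330 CPM). In the ON cascade, through which bipolar cells sense glutamate, 6 of 11 genes were lower in all areas and 0 higher, with a small median of -0.11. Its receptor GRM6 had 264, 333 and 262 CPM in the right eye and 237, 239.7 and 228 CPM in the left (log2 fold change -0.28, SE 0.0995, adjusted p 1.00), and its channel TRPM1 had 1579, 1730.4 and 1847 CPM in the right eye and 1398, 1539.6 and 1519 CPM in the left (log2 fold change -0.21, SE 0.106, adjusted p 1.00).

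Across the 5 classes, 22 interferon-list genes were tested in each. Of these, 12 were lower in the left library of all 3 areas in all 5 classes, among them the signal genes STAT2 and IRF9, the RNA sensors DDX58 and DHX58, and the effectors or regulators ISG15, IFIT1, IFIT3, IFI6, IFI27, USP18 and EIF2AK2. Of 5855 genes tested in all 5 classes, 19 did so. The remaining 7 were ADAR, DDX60, EPSTI1, HERC6, PML, TRIM14 and coRPGR, and 4 genes were higher throughout (RPS27A, COX2, RPL41 and RPS24). The classes of a library share its dissociation and its free RNA, so these are not 5 separate observations.

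**Figure D4:**
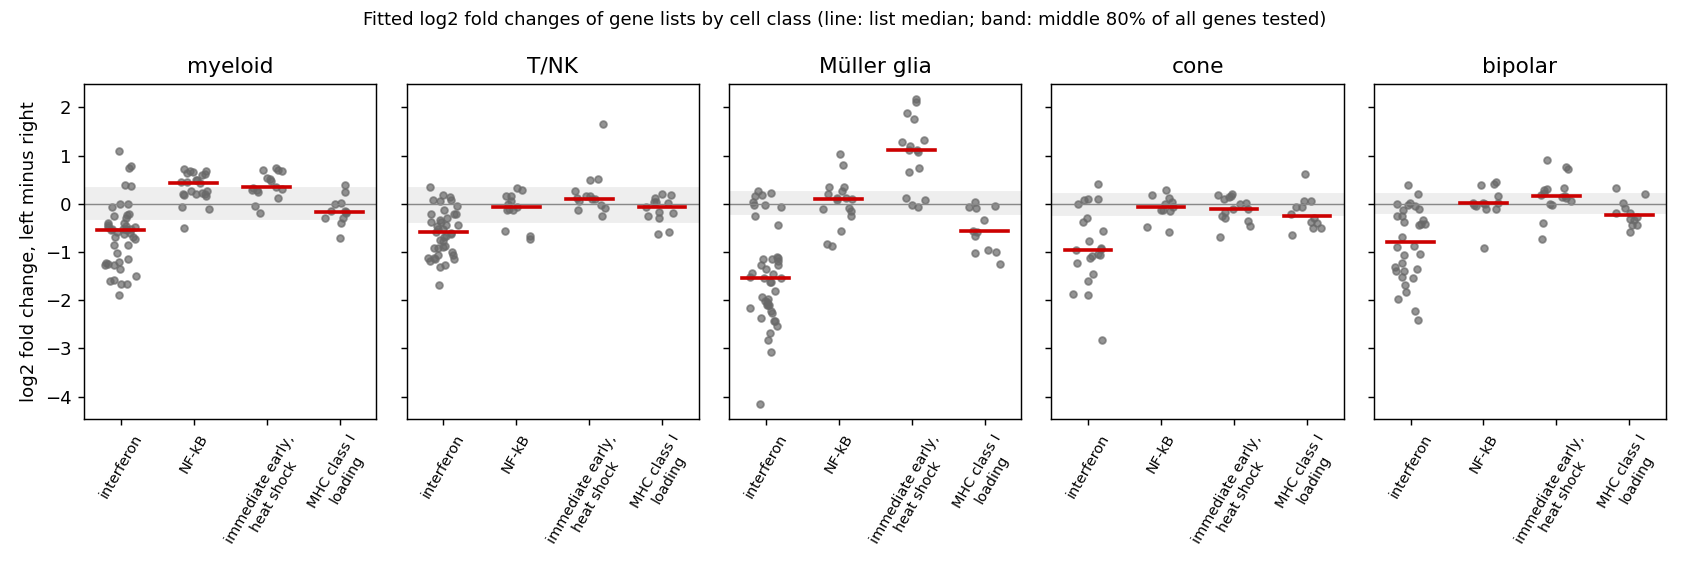
Fitted log2 fold changes, left minus right (y axis), of the tested members of 4 gene lists (x axis) in each class, with a line at each list median and a band for the middle 80% of all genes tested. The interferon list had medians of -0.55 in myeloid cells, -1.54 in Müller glia and -0.79 in bipolar cells.

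NHP1, a male of 5 years, had blebs of another vector in both eyes, which carries human RPE65 (read here as huRPE65). Its left eye was given the same antibody. The animal gave 1 library per eye, both labelled uninjected, and hence no test. Its summed interferon genes were lower than in any NHP2 library of the same class, narrowly so in left cones (331 CPM), and stood the other way in 4 of the 5 classes. Myeloid cells had 2274 CPM (right) and 3867 CPM (left), and Müller glia 803 and 1593 CPM. The right T/NK class, the exception, held 2 cells. The left NHP1 library held transcripts of the huRPE65 transgene and the right one nearly none, and these libraries were not part of any fit.

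With 3 libraries per eye the exact tests of cell shares could not go below a p of 0.25 (paired) or 0.1 (unpaired), so shares are given as values. They are shares of all cells, of which 6.91% to 25.4% per library were given no class (25.4% in the right and 10.2% in the left hRPGR area). Myeloid cells were a smaller share of the left library in all 3 areas, by -0.127, -1.30 and -1.41 percentage points, from a mean of 2.70% (right) to 1.75% (left), a mean difference of -0.945 ± 0.711 (SD, n = 3 pairs). The exact two-sided sign-flip test gave p 0.25, the smallest that 3 pairs allow. Müller glia were a larger share in all areas, by 4.78, 3.76 and 0.901 percentage points, from 7.71% to 10.9% (exact permutation p 0.25 paired and 0.1 unpaired, each the smallest possible). Cones were a smaller share by -0.0806, -1.03 and -2.47 percentage points, from 3.84% to 2.64% (exact p 0.25), but in the uninjected area the direction turned among classed cells alone (4.77% right, 5.55% left), with a minimum of 1000 UMIs (4.12% and 4.41%) and with Scrublet scores (3.96% and 4.04%). T/NK cells had no common direction, with shares of 0.235%, 0.934% and 2.78% in right libraries and of 0.289%, 0.375% and 4.24% in left libraries (exact p 0.75). Bipolar cells differed by -1.31, 4.83 and 1.56 percentage points (exact p 0.5). In counts, the hRPGR areas held 313 (right) and 119 (left) myeloid cells, 118 and 38 T/NK cells and 80 and 5 B or plasma cells. Counting error alone gave the T/NK share of the left hRPGR area an exact 95% binomial interval of 0.266% to 0.515%, and that of the right one 0.774% to 1.12%.

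**Figure D5:**
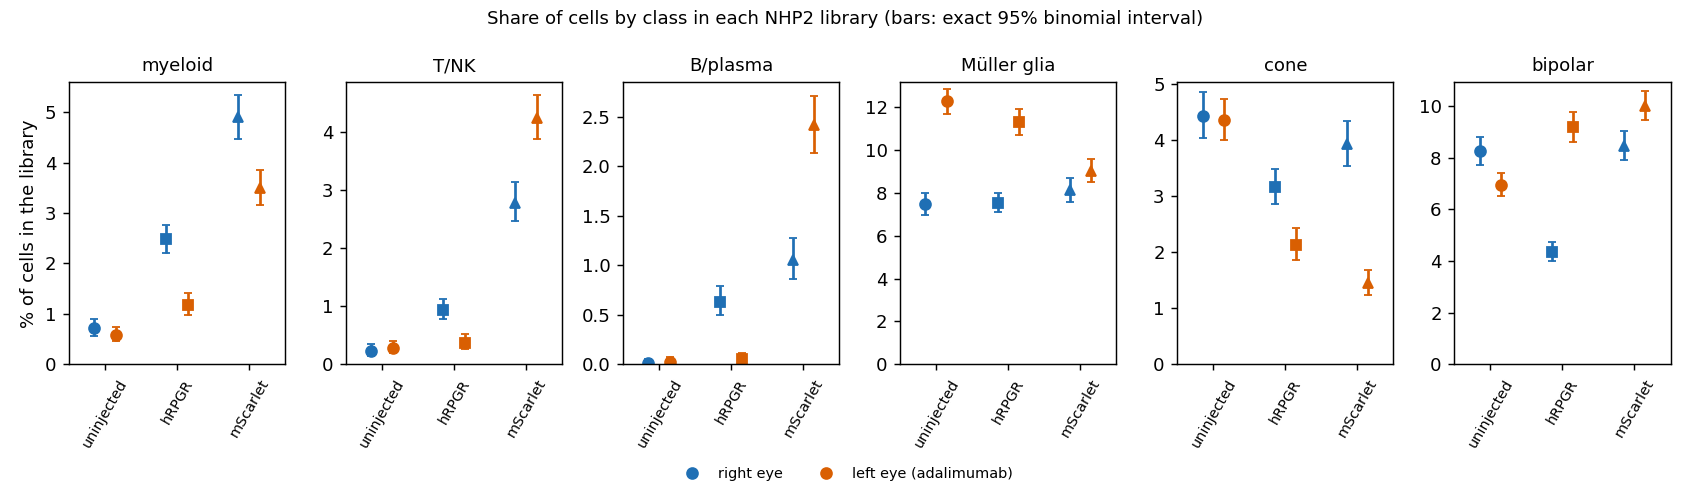
Share of cells (y axis, percent of the cells of a library) by area (x axis) for each class, 1 point per NHP2 library with its exact 95% binomial interval, coloured by eye. Müller glia averaged 7.71% of the cells of right libraries and 10.9% of those of left libraries.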

How the data were processed

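Retinal punches were dissociated with papain and sequenced with a 10x 5′ droplet kit. The authors deposited, for each library, the counts of UMIs per gene (26533 features) for all barcodes, made with Cell Ranger on Mmul_10 per the labels. The values are whole numbers, and no correction for free RNA was applied here. Cells (at least 1500 UMIs and 300 genes) were given a class where at least 4 markers were detected and the panel passed its minimum. Taken relative to its minimum, the panel also had to exceed the next passing panel 3 times over. The rod panel was left out of that comparison, so cells with much rod RNA could enter another class. A cell was called a rod only where no other panel passed. Counts were summed per library and class and tested with edgeR 4.0.16 (TMM, filterByExpr, area as a block; R 4.3.3) at an adjusted p of 0.05, with DESeq2 1.42.0 as an alternative. The test was checked on simulated counts. Doublets were not removed in the main setting, since Scrublet in scanpy 1.11.5 marked 0 to 2 cells per library; removing the highest scores was an alternative. Levels in single libraries are CPM after TMM scaling, and list sums, levels in free RNA, mScarlet levels, the coRPGR limit and transgenes in rods are CPM without it. The text names called genes, the 3 genes with a symbol of lowest p in each direction that kept 1 direction in all areas, and members of 19 lists; values of 1 member of the interferon list are not reported here. Members, lists and panel minima were chosen with earlier results of these data known. The sample titles give eye and area. Same-area libraries of the 2 eyes deviated together with correlations of -0.199 to 0.0364 (hRPGR), 0.0656 to 0.549 (mScarlet) and -0.106 to 0.252 (uninjected) over the classes, so the pairing rests on the shared area, not on the data. Intervals and limits cover counting error only.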

Additional observations from a re-analysis of the deposited data

Results flagged for a closer look

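The hRPGR and mScarlet areas of NHP2 differed in opposite directions between the eyes for T/NK cells and for B and plasma cells. The T/NK share was lower in the left eye by -0.559 percentage points in the hRPGR area and higher by 1.46 in the mScarlet area. B and plasma cells showed the same order, with -0.584 and 1.36 percentage points. Bipolar cells and rods differed in the uninjected area against both others when taken as shares of all cells (-1.31 and -19.0 percentage points in that area), but among classed cells alone rods were lower in the left eye in all areas (76.2%, 72.4% and 64.8% right, 66.2%, 72.0% and 63.1% left) and bipolar cells were at 8.88% and 8.87% in the uninjected area. These differences between areas were not tested.

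The summed interferon list stood the other way in NHP1. The level of the left eye relative to the right was 1.70 in myeloid cells, 1.98 in Müller glia, 1.19 in bipolar cells and 1.32 in cones, where NHP2 had a lower level in the left eye in all 3 areas of each class. Free RNA of NHP1 had the same list at 5.20 times the right level in the left eye, and its part was not tested. The difference between the animals was not tested, since NHP1 gave 1 library per eye.

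Transgene RNA was found in libraries labelled uninjected. Rods of the right uninjected area of NHP2 held coRPGR at 195.0 CPM (8640 UMIs), while those of the left uninjected area held 0 UMIs. Rods of the left library of NHP1 held huRPE65 at 517 CPM.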

How the results depend on the processing

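Calls in single genes depended on the processing. Without the area block, which pairs the same area of the eyes, edgeR called 0 genes in each of the 5 classes, so the 1 call in cones was lost. With no filter on low counts it called 63 genes in myeloid cells, 59 in T/NK cells, 4 in cones and 100 in bipolar cells. DESeq2 called 14 in myeloid cells, 30 in Müller glia, 2 in cones and 14 in bipolar cells. Without the cells of highest Scrublet score the counts were 10 in myeloid and 1 in T/NK cells, and with genes above free RNA alone 28 in T/NK and 12 in bipolar cells. A minimum of 1000 UMIs per cell gave 0 in cones. Leaving out 1 library at a time gave 0 to 4 genes in myeloid cells, 0 to 279 in T/NK cells, 0 to 52 in Müller glia, 0 to 21 in cones and 0 to 139 in bipolar cells. The fits without the right and without the left library of an area rest on the same remaining pairs. The T/NK share difference reversed to -0.252 percentage points (range -0.252 to 0.757) and the B and plasma cell difference to -0.285 (-0.285 to 0.686) without either mScarlet library. The rod share, -2.78 percentage points with all areas, reversed to 5.33 (-9.49 to 5.33) without either uninjected library. The causes were not tested. Of the named genes, some with small differences and some whose areas differed in direction turned, and none of them was called before or after. The log2 fold change of CXCL10 in myeloid cells became 0.019 without the replicate block and 0.0069 with at least 1000 UMIs per cell, that of CXCL9 became 0.43 and 0.049 in the same fits and 0.14 in DESeq2, that of CCL2 became -0.35 without the block and that of GPNMB 0.51 in DESeq2. In Müller glia, CXCL10 gave -0.19 without the block and -0.0054 with Scrublet scores, GBP3 0.39 and 0.0018, and RLBP1 0.015 with Scrublet scores, as OPN1LW did in cones with 0.014. Leaving out 1 library gave -0.32 to 0.13 for CXCL10, -1.63 to 1.40 for CXCL9, -0.26 to 0.86 for CCL2, -0.60 to 0.0048 for TNFRSF1A, -0.012 to 0.18 for TNFRSF1B, -0.81 to 0.34 for P2RY12, -0.86 to 0.36 for CX3CR1 and -1.13 to 0.71 for GPNMB in myeloid cells. It gave -1.13 to 0.27 for GZMB, -0.035 to 0.24 for PRF1 and -0.027 to 0.66 for PDCD1 in T/NK cells, -0.15 to 0.35 for CXCL10, -0.50 to 0.20 for GBP3, -0.33 to 0.23 for GLUL, -0.16 to 0.17 for RLBP1 and -0.25 to 0.59 for GFAP in Müller glia, and -0.15 to 0.19 for both ARR3 and OPN1LW in cones. With Scrublet scores the count of NF-kB list members higher on the left in all areas became 0 in T/NK cells and 2 in cones. The sizes of several interferon differences and of TNF also moved with 1 library, as given beside them; in cones OPN1SW ranged from -2.11 to -0.34, IFI6 from -2.80 to -1.38 and EIF2AK2 from -1.39 to -0.66, in Müller glia B2M from -1.72 to -0.32, and in myeloid cells CXCL8 from 0.25 to 0.86. Apart from those that turned, fold changes of named genes kept their direction. Of the values for named genes and lists, 1059 were counted as the same. These were fold changes on the same side of the threshold, or list counts close to the main count. A further 110 fold changes were newly past the threshold and 6, all coRPGR in cones, were no longer past it. The log2 fold change of coRPGR in cones lay between -6.20 and -4.87 in the fits without 1 hRPGR or mScarlet library, where its call was lost. The T/NK sums, with 24 to 478 cells per library, limit what that class can show.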
